A study of Mus musculus with 8 samples.

Results

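The ribosome biogenesis genes were followed through the libraries of the study as a list of 40 genes chosen by symbol: the RNA polymerase I machinery, the box C/D and H/ACA ribonucleoproteins, assembly factors of the small and of the large ribosomal subunit, and nucleolar chaperones. The list was chosen with earlier results of these data known. A row with the symbol was found for 38 of the 40. Nolc1 and Noc2l were not analysed here. Of the 38, 37 had a mean of at least 20 normalised reads over the 8 libraries and entered the tests, which covered 10599 transcripts in all. Wdr12 lay just inside this minimum with a mean of 20.1, and Polr1e, a subunit of RNA polymerase I, lay under it with a mean of 1.61 (0.905 to 2.12 over the libraries).

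Ribosomes are assembled in the nucleolus. RNA polymerase I transcribes the ribosomal DNA into a long precursor, small nucleolar ribonucleoproteins guide its methylation and pseudouridylation, and large complexes cut and fold it into the small and large subunits. Cells that grow and divide fast, as blood progenitors do, use this pathway heavily, and MYC is a known activator of many of its genes.

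All 8 libraries were made from lineage-negative bone marrow cells of C57BL/6 mice, a preparation enriched for blood stem and progenitor cells, and all were labelled Ring1a-/- and Cdkn2a-/-. Either Ring1a or Ring1b can serve as the ubiquitin ligase of PRC1, a Polycomb complex, and Cdkn2a encodes the tumour suppressors INK4A and ARF. OHT (4-hydroxytamoxifen) or ethanol was given for 72 h. The OHT libraries were labelled Ring1b KO and the control libraries Ring1b WT. The cells carried HOXA9, a homeobox gene, PML-RARa or MLL-AF9, both leukaemia fusion genes, or were labelled NT, not transduced, and these are called the 4 contexts. The labels do not name the promoter or driver of the recombinase, the vector, or whether animals were pooled, and the deposited NT table calls its columns empty, so an empty vector in NT cannot be told apart from none. There was 1 OHT and 1 control library per context. The contexts therefore served as the only replicates, and p-values measure the spread between contexts, not between cultures or animals of 1 context.

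The libraries held 4226751 to 6998223 reads, and the OHT library had the lower total in every pair. The gap was slight in HOXA9 (6641843 against 6657911 reads). It was wider in PML-RARa (4886703 against 5992257), MLL-AF9 (4226751 against 5342836) and NT (5699203 against 6998223). Rnf2, the gene of Ring1b, was listed at 856, 771, 767 and 802 normalised reads in the OHT libraries of HOXA9, PML-RARa, MLL-AF9 and NT, against 896, 990.4, 769.8 and 666 in the control libraries. The log2 ratio of OHT over control averaged -0.04 ± 0.13 over the 4 contexts (SE; limma adjusted p = 0.852), so the whole-transcript level gave no check of the genotype labels, and the deleted part of the gene is not stated. Of the marker lists, macrophage and monocyte genes rose with OHT in 10 of 10 tested (11 listed), with a summed level of 10291 to 18724 in OHT libraries and 1141 to 3410 in control libraries. In the MLL-AF9 control library Marco and C1qa were listed at 1.06, the lowest entry. No entry is 0, so the lowest may stand for 1 read, or for none if 1 was added to every count before deposit; read counts below are given as 1 read per lowest entry and may each be 1 too high. Their part in the members' ratios was not tested. Progenitor markers summed to 5476 to 7156 in OHT and 6075 to 8610 in control libraries, and 1 of the 6 tested fell (Myb). The 5 B and T cell markers with a row all had a mean under 20. In bulk RNA, fewer cells of a type and less RNA per cell cannot be told apart.

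All 37 members had a mean log2 ratio of OHT over control below 0, and 6 of them fell past the test: Rrp1b, Wdr12, Polr1b, Dkc1, Nop56 and Gar1. None rose. Of all tested transcripts, 7.48% fell and 6.4% rose (793 and 678, limma on log2(value + 1) with context as a block, Benjamini-Hochberg adjusted p under 0.05). The median ratio was -0.44 over the members and -0.03 over all tested transcripts, and 52.5% of all tested transcripts had a mean ratio below 0. For 28 members the OHT value was below the control value in all 4 contexts (26.5% of all tested transcripts), and for 21 members all 4 OHT values lay below all 4 control values (12.6%). Because the members were chosen with earlier results of these data known, these counts and shares are a description and not a test of the list. With 1 read fewer in every entry, Nop56 no longer passed (adjusted p = 0.05004) and the other 5 did. The 6 calls needed every pair: without any 1 of the 4 pairs, no member passed. The limma adjusted p of the 6 then ranged from 0.0598 to 0.136. This loss was not particular to the members. Of all 10599 tested transcripts, 1471 were called with every pair, 26 when NT was dropped and 0 when any other context was. With edgeR's quasi-likelihood test on recovered reads, 11 members fell and none rose (9.05% and 12% of all tested), and 57.1% of all its calls were higher with OHT, against 46.1% with limma.

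**Figure D1:**
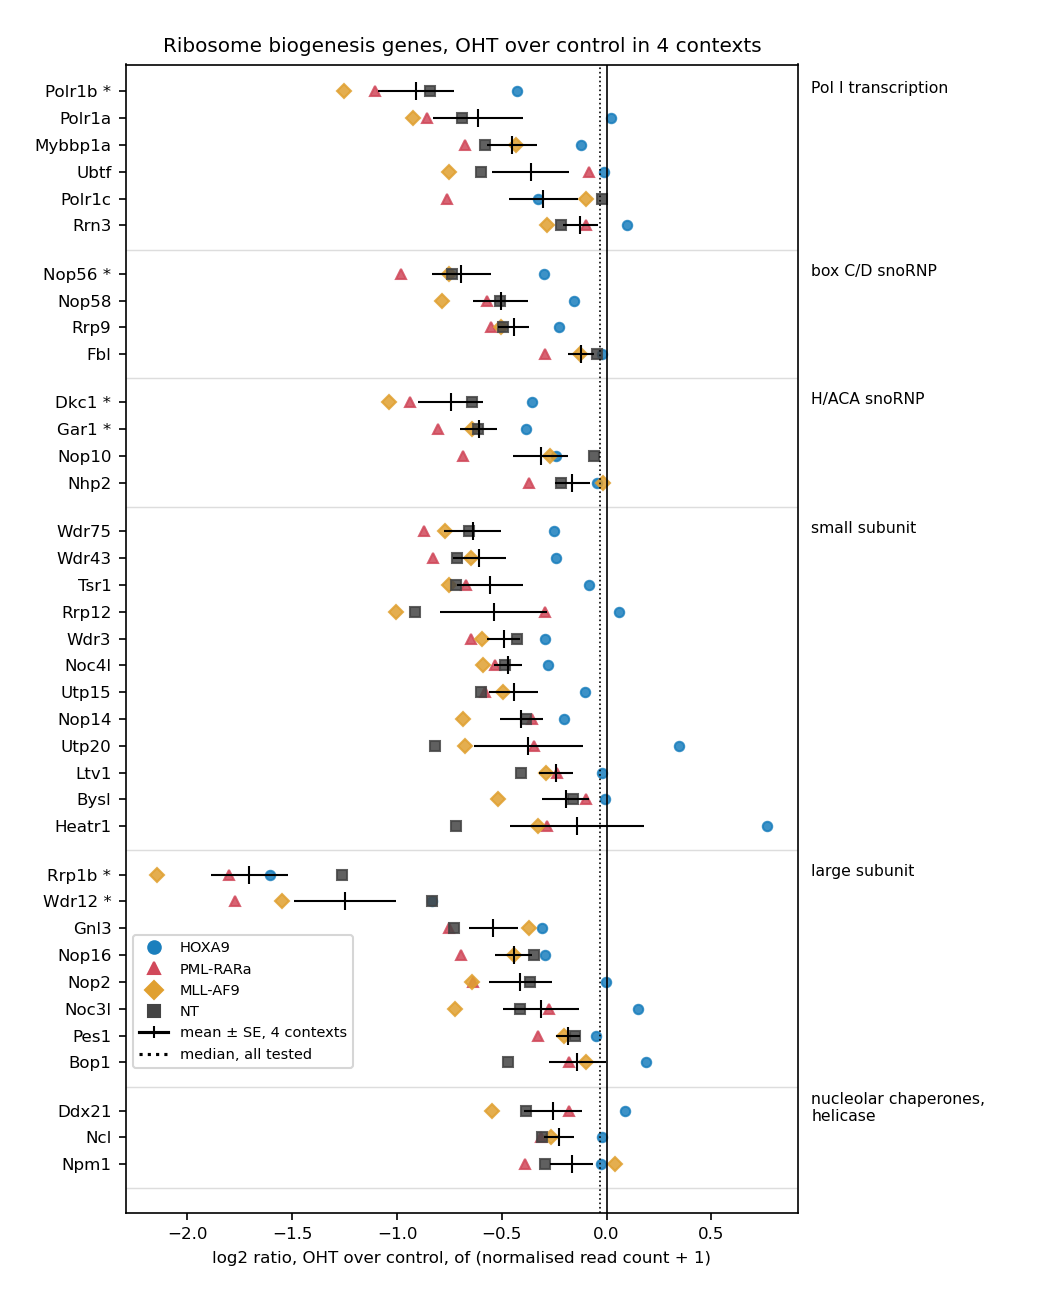
Log2 ratio of OHT over control, on the log2(normalised read count + 1) scale, for each of the 37 tested members, grouped by role. Coloured points are the 4 contexts, and the black bar and line the mean ± SE over contexts. The dotted line is the median of all tested transcripts (-0.03), and an asterisk marks the 6 members that fell. Every mean lies left of 0. For 36 of 37 members the HOXA9 point lies right of the mean of the other 3, as for 6372 of 10599 tested transcripts.

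The machinery that transcribes ribosomal DNA had 6 tested members, with a median ratio of -0.41. Polr1b, the second-largest subunit of RNA polymerase I, fell and is the 1 of the 6 that passed. Its values were 655, 446, 452 and 560.0 normalised reads in the OHT libraries of HOXA9, PML-RARa, MLL-AF9 and NT, against 883, 962, 1079 and 1004 in the control libraries. Every OHT value was below every control value, and the log2 ratio averaged -0.91 ± 0.18 (SE; limma adjusted p = 0.0422). Polr1a, the largest subunit, did not pass. It was listed at 1157, 614, 568 and 659 in OHT libraries, against 1142, 1114, 1077 and 1065 in control libraries. The 4 control values lay close together, and the HOXA9 OHT library stood with them while the other 3 OHT libraries lay well below (mean -0.61 ± 0.22, SE, limma adjusted p = 0.094).

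Mybbp1a, a nucleolar MYB-binding protein linked to ribosomal RNA synthesis, was the most abundant of the 6 per length. It had 2709, 2030.4, 2366 and 1975 normalised reads in the OHT libraries of HOXA9, PML-RARa, MLL-AF9 and NT, against 2947, 3243, 3188 and 2954 in control libraries. The groups did not overlap, but the change did not pass (-0.45 ± 0.12, SE, limma adjusted p = 0.0848). Polr1c, a subunit shared by polymerases I and III, had the ratio nearest to 0 of all members in NT, -0.02, with 378, 369, 443 and 459 in OHT libraries, against 474, 626, 475 and 467 in control libraries. The groups did not overlap, by a narrow margin, and the mean of -0.30 ± 0.17 did not pass. Rrn3, the initiation factor that recruits the polymerase, had a mean ratio of -0.13 ± 0.08 (SE, limma adjusted p = 0.473). Ubtf, the factor that binds the ribosomal gene promoter, was listed at 72.4, 59.5, 35.5 and 58.2 in the OHT libraries of HOXA9, PML-RARa, MLL-AF9 and NT, against 73.1, 63.2, 60.4 and 88.5 in control libraries. The groups overlapped, and its ratio of -0.08 in PML-RARa was the highest of any member there.

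Among the box C/D proteins, which methylate ribosomal RNA, the median ratio was -0.47 and 1 of 4 fell. Nop56, a core scaffold of the particle, had 1289.5, 910.5, 1291 and 1008 normalised reads in the OHT libraries of HOXA9, PML-RARa, MLL-AF9 and NT, against 1587, 1797, 2176 and 1680.3 in control libraries. No OHT value reached the lowest control value, and the log2 ratio averaged -0.69 ± 0.14 (SE; limma adjusted p = 0.0485). Its partner Nop58 (-0.50 ± 0.13) and the U3-specific Rrp9 (-0.44 ± 0.07) also had groups that did not overlap, without passing (limma adjusted p = 0.0743 and 0.064). Fbl, the methyltransferase itself, had the mean ratio nearest to 0 of the 37 and the highest level per length, 804 normalised reads per kb of transcript. It was listed at 890.4, 874, 984 and 935 in OHT libraries, against 903, 1073, 1074 and 965 in control libraries, and these groups overlapped (-0.12 ± 0.06, SE, limma adjusted p = 0.455). Within the particle the mean ratios thus ran from -0.69 to -0.12, and the differences between members were not tested.

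The H/ACA proteins, which convert uridine to pseudouridine and also belong to telomerase, had a median of -0.46, and 2 of 4 fell. Dkc1, the pseudouridine synthase, had 879, 666, 774 and 856 normalised reads in the OHT libraries of HOXA9, PML-RARa, MLL-AF9 and NT, against 1124, 1278, 1588 and 1338 in control libraries. The groups did not overlap, and the ratio averaged -0.74 ± 0.15 (SE; limma adjusted p = 0.0467). Gar1, which completes the mature particle, had 308, 252, 366 and 348 in OHT libraries, against 402, 441, 571 and 534 in control libraries. Here too all OHT values were lower, with a mean of -0.61 ± 0.09 (SE, limma adjusted p = 0.0431). The structural partners Nop10 (-0.31 ± 0.13) and Nhp2 (-0.16 ± 0.08) had overlapping groups and did not pass. Nhp2 was listed at 537, 522, 699.9 and 576 in OHT libraries, against 555, 677, 708 and 669 in control libraries.

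The 12 tested factors of the small subunit had a median of -0.46, none passed, and 8 of them had groups that did not overlap. The lowest mean ratios were those of Wdr75 (-0.64 ± 0.14, limma adjusted p = 0.0528), Wdr43 (-0.61 ± 0.13, 0.0539) and Tsr1 (-0.56 ± 0.16, 0.0754). Wdr75 and Wdr43 belong to the early processome subcomplex that binds the nascent precursor, and Tsr1 is a GTPase-like factor of late cytoplasmic maturation. Utp15, Wdr3, Nop14, Noc4l and Ltv1 were the other 5 without overlap, with mean ratios of -0.49 to -0.24. Heatr1, another early processome protein, stood apart: its values were 2136, 1127, 1093 and 925 in the OHT libraries of HOXA9, PML-RARa, MLL-AF9 and NT, against 1254, 1373, 1371 and 1525 in control libraries. It was higher with OHT in HOXA9, where the linear ratio was 1.70 (95% exact interval 1.60 to 1.82, counting error only), and lower in the other 3. Its mean was -0.14 ± 0.32 (SE, limma adjusted p = 0.728). Utp20 and Rrp12 were likewise higher with OHT in HOXA9 alone (log2 ratios 0.35 and 0.06) and lower in the other 3 contexts.

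The 8 tested factors of the large subunit had a median of -0.43, and 2 fell. Rrp1b, a nucleolar factor of late large subunit processing, had the lowest ratio of the 37 in each of the 4 contexts on the log2(value + 1) scale; on the linear scale Wdr12 was lower in PML-RARa, at 0.267 against 0.281 for Rrp1b. It was listed at 55.2, 33.3, 24.6 and 29.1 normalised reads in the OHT libraries of HOXA9, PML-RARa, MLL-AF9 and NT, against 170.2, 119, 112 and 71.1 in control libraries. These rest on 61, 28, 18 and 28 reads with OHT and 205, 124, 106 and 86 in the controls. The log2 ratio averaged -1.70 ± 0.19 (SE; limma adjusted p = 0.0352), and the linear ratio was lowest in MLL-AF9, at 0.219 (95% exact interval 0.125 to 0.363, counting error only). With 1 read fewer in every entry that ratio was 0.209 (0.117 to 0.35). Wdr12 fell by 1.25 ± 0.24 on the log2 scale (SE, limma adjusted p = 0.038). It had 15.4, 7.14, 10.9 and 13.5 in OHT libraries, against 28.2, 26.8, 33.9 and 24.8 in control libraries. These are 6 to 17 reads against 28 to 34. DESeq2 on the same reads did not call Wdr12 (adjusted p = 0.0934). All 4 OHT values lay under the minimum mean of 20, so Wdr12 entered the tests through its control values. With no filter on low values it did not pass (limma adjusted p = 0.057).

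Wdr12 acts with Pes1 and Bop1 in the PeBoW complex, which is needed to process the large subunit precursor. Pes1 (-0.18 ± 0.06) and Bop1 (-0.14 ± 0.14) did not pass, and their groups overlapped; whether they differ from Wdr12 was not tested. Wdr12, Rrp1b, Ubtf and Gnl3 are also the 4 tested members with several RefSeq transcripts under 1 symbol. Their rows held 2.01 to 30.3 normalised reads per kb, where the other 33 members held 87.8 or more, and their median ratio was -0.89 against -0.41 for the 33. How reads shared by transcripts were counted is not given in the sources used here, so the levels of these 4 are uncertain. Summing all rows of a symbol gave -1.65 for Rrp1b and -0.90 for Wdr12, and both still passed (limma adjusted p = 0.0346 and 0.0406). Gnl3 (nucleostemin), the ribosomal RNA methyltransferase Nop2, Nop16 and Noc3l had mean ratios of -0.54 to -0.31 and did not pass.

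**Figure D2:**
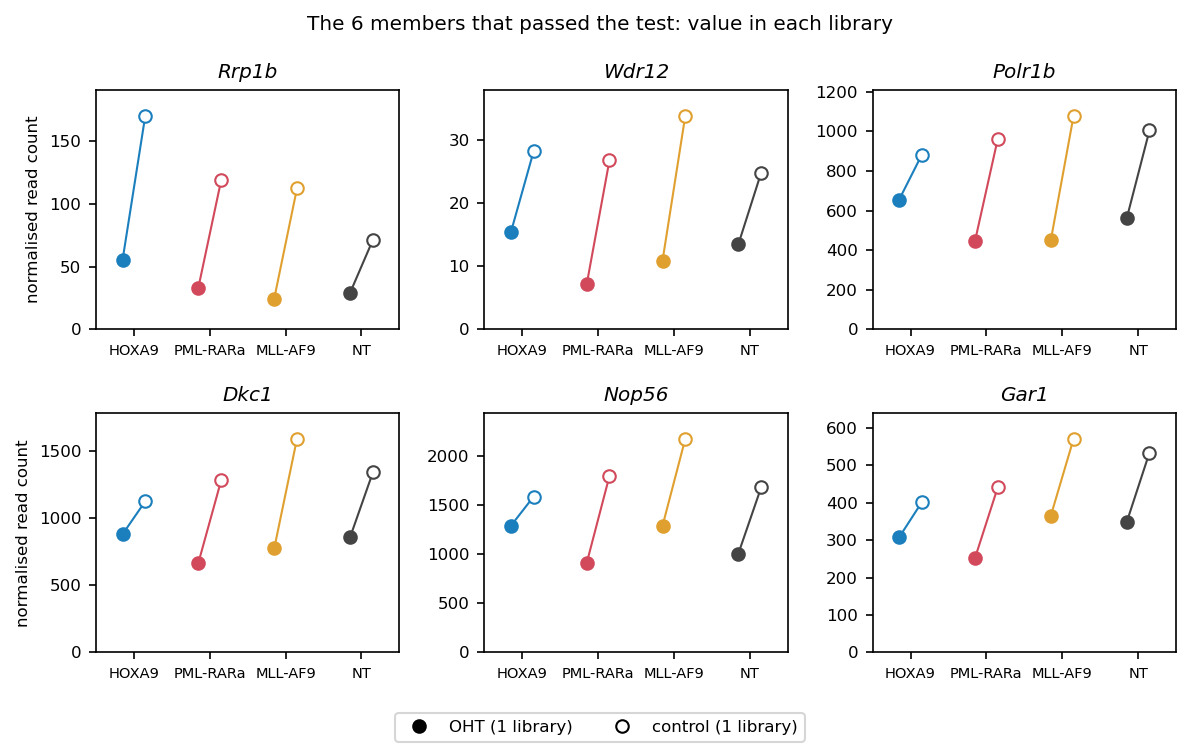
Normalised read count (linear axis from 0) of the 6 members that fell, in the 8 libraries. Filled points are OHT libraries and open points control libraries of the same context, 1 library each; in every panel all filled points lie below all open points.

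The nucleolar chaperones and the helicase had the median ratio nearest to 0 by role, -0.23, and none of the 3 passed. Ncl (nucleolin), which binds the precursor, had 3312 to 3892 normalised reads in OHT and 3611 to 4686 in control libraries (-0.23 ± 0.07). The RNA helicase Ddx21 was listed at 2372, 2193, 1859 and 2038 in the OHT libraries of HOXA9, PML-RARa, MLL-AF9 and NT, against 2232, 2487, 2717 and 2663 in control libraries (-0.26 ± 0.14). Npm1 (nucleophosmin) had 198, 193, 263 and 215 in OHT libraries, against 202, 253, 256 and 264 in control libraries. It was the 1 member with a ratio above 0 in MLL-AF9 (0.04), and its level is uncertain, because it has near-identical processed copies in the genome among which reads may be split. Split by coverage, the 13 members above 0.5 reads per base of transcript in some library had a median of -0.41 and the other 24 a median of -0.44, and 3 members fell in each.

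Within single contexts there was no replicate and no test. The member median was -0.10 in HOXA9, -0.57 in PML-RARa, -0.59 in MLL-AF9 and -0.49 in NT, and 29, 37, 36 and 37 of the 37 ratios were below 0. Over all 10599 tested transcripts the medians were 0.01, -0.09, -0.10 and 0.03, and 5185, 5967, 5843 and 5060 ratios were below 0. The median log2 value of the OHT library was lower than that of its control by 0.22 in PML-RARa and 0.15 in MLL-AF9. Set against the library medians, the member medians were -0.11, -0.35, -0.44 and -0.46 in HOXA9, PML-RARa, MLL-AF9 and NT, with 29, 32, 32 and 36 ratios below 0. Such centred ratios were not counted over all tested transcripts. Rrp1b was at least 2-fold lower with OHT in every context. Polr1b and Wdr12 joined it in PML-RARa, and Polr1b, Wdr12, Dkc1 and Rrp12 in MLL-AF9. The counts of 1, 3, 5 and 1 members at least 2-fold lower in HOXA9, PML-RARa, MLL-AF9 and NT stand beside 5.14%, 12.4%, 13.9% and 7.93% of all tested transcripts, and no member was 2-fold higher in any context, where 7.96%, 7.83%, 13.5% and 12% of all tested transcripts were. At a milder limit of 1.5-fold with at least 100 in the higher library, 1, 15, 17 and 12 members were lower (8.6%, 16.8%, 19.5% and 12% of all tested). Heatr1 in HOXA9 was the 1 member past it upwards (10.8%, 10.4%, 14.1% and 14.1% of all tested in the 4 contexts). In the authors' deposited tables, no member had an unadjusted p under 0.05 in any context, and the lowest was that of Rrp1b in each, 0.0666 in MLL-AF9.

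The ratio in HOXA9 exceeded the mean of the other 3 contexts for 36 of 37 members and for 6372 of 10599 tested transcripts. The median difference was 0.44 for the members, against 0.10 over all tested transcripts. Set against library medians, the median difference was 0.29 for the members and -0.05 for all tested. This comparison was chosen after the ratios were seen. It rests on 1 pair of HOXA9 libraries, the pair with the closest read totals, and the part of depth was not tested. No transcript passed it with limma (344 at an unadjusted p under 0.05, 3 of them members), none passed with edgeR, and 1 passed with DESeq2, which was no member. The 3 members were Heatr1 (difference 1.21 ± 0.28), Utp20 (0.96 ± 0.28) and Polr1a (0.84 ± 0.14). Rrp1b, the member with the lowest mean ratio, had a difference of 0.13 ± 0.52. No single member's ratio was therefore shown to differ between HOXA9 and the other contexts.

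The transduced contexts set against NT gave no call either, member or not, with limma (573 at an unadjusted p under 0.05, no member among them) or edgeR, and 64 with DESeq2, again none a member. The members' median difference was 0.07. In the 3 transduced contexts alone, 26 of 10599 transcripts passed (0.0189% lower, 0.226% higher) and no member did, with the lowest limma adjusted p at 0.0598 for Rrp1b. At an unadjusted p under 0.05 stood 12 of 37 members, beside 3196 of the 10599 transcripts. In that fit edgeR called Rrp1b lower, among 170 of 10599 transcripts called lower. DESeq2 called Rrp1b, Polr1b, Dkc1 and Nop56 lower, among 765 of 10599.

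**Figure D3:**
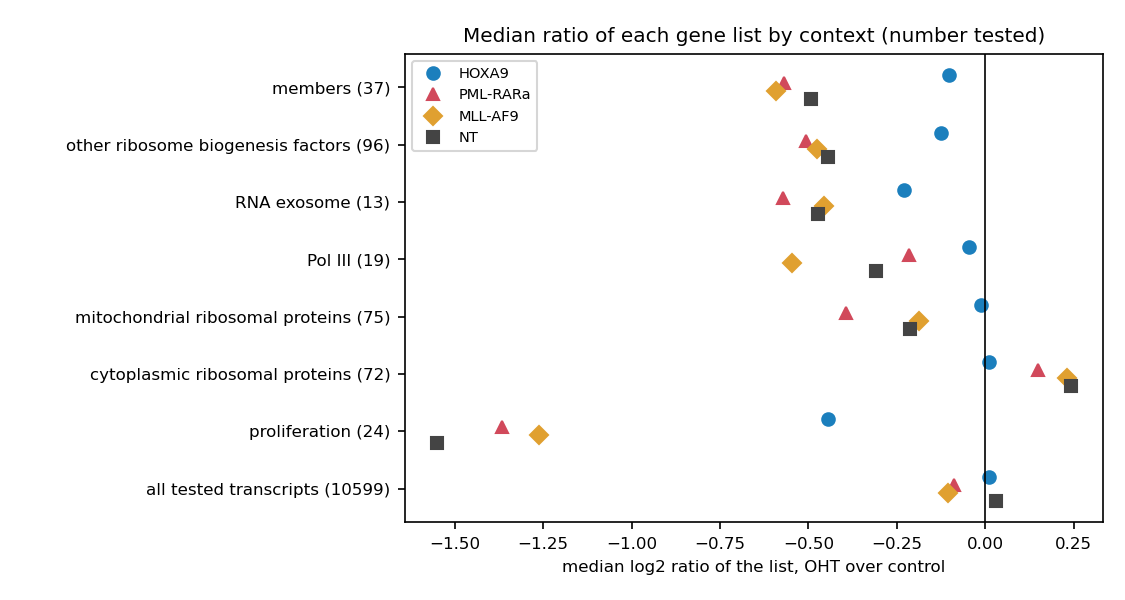
Median log2 ratio of OHT over control for each gene list (number of tested genes in parentheses), 1 point per context. The proliferation list lies furthest left and cytoplasmic ribosomal proteins at or right of 0, and the HOXA9 point of the members (-0.10) lies nearest to 0 of their 4.

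Related gene lists were read beside the members. The lists were chosen with earlier results known, and their ratios come from the same libraries. Of 96 other tested ribosome biogenesis factors, 8 fell and none rose, with a median of -0.39. The share that fell, 8.33%, is near the 7.48% of all tested transcripts. Nsun5, a ribosomal RNA methyltransferase, had 167, 92.8, 95.5 and 99.7 normalised reads in the OHT libraries of HOXA9, PML-RARa, MLL-AF9 and NT, against 226, 188, 229 and 251 in control libraries, without overlap. The others were Ruvbl2 (-0.89 ± 0.15), an ATPase of particle assembly, Nle1 (-0.81 ± 0.15), Dimt1 (-0.78 ± 0.12), Ppan (-0.76 ± 0.16), Lyar, Ddx51 and Ddx56. The RNA exosome, which trims precursor ends, had a median of -0.41 over 13 genes, of which Exosc6 (-0.98 ± 0.17) and Exosc7 (-0.73 ± 0.10) fell. Of 19 RNA polymerase III genes 1 fell, Polr3g (-0.82 ± 0.08), with a median of -0.29. Polr3g had 253, 237, 243 and 318 normalised reads in the OHT libraries of HOXA9, PML-RARa, MLL-AF9 and NT, against 422, 441, 490.3 and 496 in control libraries, without overlap.

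The cytoplasmic ribosomal proteins, which the members assemble, had a median ratio above 0. Of 72 tested cytoplasmic ribosomal protein genes none passed, 67 had a mean ratio above 0 and the median was 0.16. These genes have many processed copies in the genome, so their levels are uncertain. Their difference from the members was not tested. Mitochondrial ribosomal proteins had a median of -0.19 over 75 genes, and 1 fell, Mrpl19 (-0.78 ± 0.15). Of 9 tested genes of the MYC and MAX family none passed. Mycn differed in sign between contexts, with log2 ratios of -2.50, -0.60, -1.45 and 1.13 in HOXA9, PML-RARa, MLL-AF9 and NT. Myc itself was not analysed here.

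Of 24 tested proliferation genes, 15 fell and none rose, with a median of -1.18, where 7.48% of all tested transcripts fell and 6.4% rose. Birc5 (-2.61 ± 0.39), Aurkb (-1.78 ± 0.30), Foxm1 (-1.60 ± 0.30), Bub1b (-1.56 ± 0.30) and Plk1 (-1.40 ± 0.33) had the lowest ratios. The summed level of the list was 23946, 13774, 17505 and 15734 normalised reads in the OHT libraries of HOXA9, PML-RARa, MLL-AF9 and NT, against 31333, 31272, 38473 and 42677 in control libraries. By context the list's median was -0.44, -1.37, -1.26 and -1.55 in HOXA9, PML-RARa, MLL-AF9 and NT. The macrophage list of 16 genes had medians of 3.16, 3.38, 5.83 and 1.89 in the same order, with 12 that rose (6.4% of all tested transcripts). The part of dividing cells or of macrophage-like cells in the members' ratios was not tested.

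The profile shared by the 37 members, the mean of their centred log2 values, was -0.03, -0.39, -0.27 and -0.23 in the OHT libraries of HOXA9, PML-RARa, MLL-AF9 and NT, against 0.11, 0.20, 0.33 and 0.28 in control libraries. All 4 control libraries lay above all 4 OHT libraries. Pearson correlations with this mean over the 8 libraries ran from 0.454 for Bysl to 0.988 for Wdr75 and for Polr1b; the libraries share depth and pairing, and the mean includes each gene. Similar profiles were then sought only outside the members, the related lists and the marker lists, so genes of those lists could not appear. The nearest transcripts there were Supv3l1 (0.993), Rnf26 (0.990), Cdca8 (0.989), Nusap1 (0.989), Cdc16 (0.988), Ctps (0.988), Ydjc (0.985), Anapc5 (0.985), Tmed1 (0.985) and Rrm1 (0.985), again over 8 libraries.

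Levels were compared between contexts with 2 libraries each, after removing the mean OHT difference. No member differed among the 4 contexts in the F test, where 2.19% of all tested transcripts did. The median difference of the members was -0.02 for HOXA9 over NT, -0.11 for PML-RARa over NT and 0.05 for MLL-AF9 over NT, against -0.04, -0.09 and -0.05 over all tested transcripts. These medians turn with the library. Leaving out the OHT library of the transduced context gave -0.21 for HOXA9, 0.01 for PML-RARa and 0.11 for MLL-AF9, and leaving out its control library gave 0.21, -0.20 and -0.08. No member passed in any of these contrasts (1.59% lower and 0.623% higher of all tested in HOXA9, 0.00943% each way in PML-RARa, 2.4% lower and 0.472% higher in MLL-AF9). At an unadjusted p under 0.05, beside 1963, 1382 and 1895 of the 10599 tested transcripts, stood 2, 0 and 1 members. In HOXA9 these were Rrp1b (1.07 ± 0.26, limma adjusted p = 0.138) and Bysl (-0.51 ± 0.16, 0.256), and in MLL-AF9 Bysl again (-0.53 ± 0.16, 0.25).

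**Figure D4:**
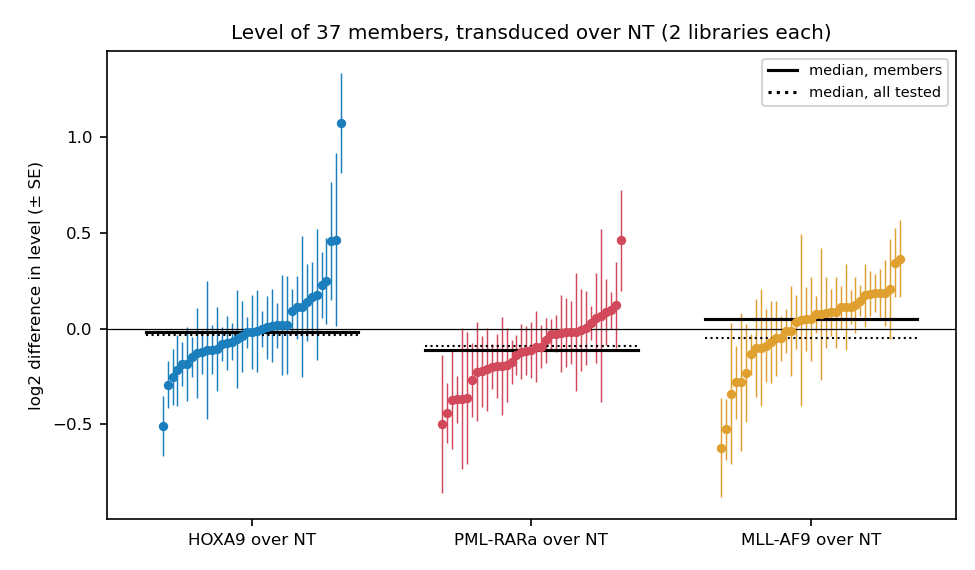
Difference in log2 level (± SE) of each of the 37 tested members between a transduced context and NT, ordered by size within each comparison, 2 libraries per context. The solid line is the members' median (-0.02, -0.11 and 0.05 for HOXA9, PML-RARa and MLL-AF9) and the dotted line that of all tested transcripts; the highest point in HOXA9 is Rrp1b (1.07).

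Among control libraries alone, 32 of 37 members were lower in HOXA9 than in NT (57% of all tested transcripts), with a median log2 difference of -0.19 (-0.08 over all tested). HOXA9 was the lowest of the 4 control libraries for 27 members, and the same share over all tested transcripts was not counted. In the OHT libraries 9 members were lower (50.1% of all tested) and 28 higher in HOXA9 than in NT, with a median of 0.17 (-0.0009 over all tested). In PML-RARa 21 members and in MLL-AF9 14 were lower than in NT among control libraries (55.8% and 51.3% of all tested). The medians were -0.06 and 0.08 (-0.07 and -0.02 over all tested). Rrp1b ran against the rest: it was 2.39 times as high in HOXA9 as in NT, 170.2 against 71.1. It was the 1 member at least 2-fold apart from NT in any transduced control library; of all tested transcripts 10.4%, 10.9% and 7.1% were at least 2-fold higher than in NT in HOXA9, PML-RARa and MLL-AF9, and 6.59%, 7.42% and 10.1% at least 2-fold lower. At 1.5-fold with at least 100 in the higher library, Rrp1b was higher than in NT in all 3 (10.7%, 11% and 8.82% of all tested). Rrp12 and Bysl were lower than in NT in HOXA9, and Rrp12 and Utp20 in PML-RARa (9.55% and 11.1% of all tested), and none in MLL-AF9 (10.9%). Between the highest and the lowest of the 4 control libraries, the other members differed by 1.07-fold (Polr1a, Gnl3) to 1.75-fold (Rrp12). Rrp12, an export factor of both subunits, had 594, 514 and 765 normalised reads in the control libraries of HOXA9, PML-RARa and MLL-AF9, against 901 in that of NT. Bysl, a small subunit maturation factor, had 508, 550.2 and 599, against 764 in NT. With 1 control library per context these differences have no replicate check.

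Promoters were read for sequence features that the choice of genes had not used. RefSeq start-site windows of build GRCm38.p6, 250 bases before to 50 bases after each annotated start, were matched by symbol for 36 of the 40 genes, with 45 windows in all. The windows below show 4 of the members that fell and have 1 window each, and 2 members that did not pass but carry motifs. Capitals mark CACGTG, the canonical E-box that MYC and MAX and other factors recognise, and CCGGAAG or its reverse complement CTTCCGG, an ETS-type motif; the windows of Polr1b, Nop56 and Dkc1 hold neither. They lie at chr2:129100746-129101045, plus strand for Polr1b, chr2:130274162-130274461, plus strand for Nop56, chrX:75095604-75095903, plus strand for Dkc1, chr3:129831347-129831646, minus strand for Gar1, chr16:13780449-13780748, plus strand for Rrn3 and chr6:125131633-125131932, plus strand for Nop2, each printed 5′ to 3′ on the strand of the gene.
Polr1b: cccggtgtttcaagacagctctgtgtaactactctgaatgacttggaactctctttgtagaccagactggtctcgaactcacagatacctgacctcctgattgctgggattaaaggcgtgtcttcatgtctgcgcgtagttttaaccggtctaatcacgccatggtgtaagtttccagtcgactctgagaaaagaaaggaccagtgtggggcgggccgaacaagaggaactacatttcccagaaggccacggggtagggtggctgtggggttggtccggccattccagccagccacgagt
Nop56: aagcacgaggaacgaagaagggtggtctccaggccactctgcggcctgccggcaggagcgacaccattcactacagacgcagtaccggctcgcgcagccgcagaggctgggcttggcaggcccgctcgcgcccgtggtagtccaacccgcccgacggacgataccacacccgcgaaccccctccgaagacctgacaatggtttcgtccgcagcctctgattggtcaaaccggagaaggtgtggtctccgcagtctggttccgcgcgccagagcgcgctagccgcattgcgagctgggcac
Dkc1: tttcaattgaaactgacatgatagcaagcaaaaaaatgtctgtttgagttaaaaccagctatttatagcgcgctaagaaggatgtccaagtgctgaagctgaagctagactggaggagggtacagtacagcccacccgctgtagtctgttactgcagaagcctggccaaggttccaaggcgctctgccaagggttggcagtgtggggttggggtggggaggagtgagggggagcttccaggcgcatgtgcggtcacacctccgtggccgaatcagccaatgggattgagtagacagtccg
Gar1: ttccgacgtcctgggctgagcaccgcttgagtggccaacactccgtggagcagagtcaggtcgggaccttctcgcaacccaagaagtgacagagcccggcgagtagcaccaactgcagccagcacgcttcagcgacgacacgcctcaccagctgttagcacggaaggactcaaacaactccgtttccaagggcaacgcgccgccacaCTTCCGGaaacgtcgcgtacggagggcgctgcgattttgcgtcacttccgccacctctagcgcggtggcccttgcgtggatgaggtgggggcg
Rrn3: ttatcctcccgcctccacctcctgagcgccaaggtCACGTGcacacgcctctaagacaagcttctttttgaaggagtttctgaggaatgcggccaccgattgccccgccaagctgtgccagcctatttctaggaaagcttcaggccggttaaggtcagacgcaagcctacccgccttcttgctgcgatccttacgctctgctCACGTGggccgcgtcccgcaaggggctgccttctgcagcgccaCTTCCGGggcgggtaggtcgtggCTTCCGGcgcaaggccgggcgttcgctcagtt
Nop2: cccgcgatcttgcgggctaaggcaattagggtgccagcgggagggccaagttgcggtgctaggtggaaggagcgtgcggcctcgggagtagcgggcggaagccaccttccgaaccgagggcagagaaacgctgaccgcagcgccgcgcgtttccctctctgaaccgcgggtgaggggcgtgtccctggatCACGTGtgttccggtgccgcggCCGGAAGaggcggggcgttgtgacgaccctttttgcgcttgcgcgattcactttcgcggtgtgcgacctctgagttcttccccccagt

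CACGTG stood in a window of 8 of the 36 genes (22.2%), against 11.6% of 7808 other tested genes and 8.09% of all 27025 genes. The 8 were Ltv1, Mybbp1a, Nop2, Pes1, Rrn3, Tsr1, Utp20 and Wdr43, and Rrn3 held it at 2 places. None of the 6 genes that fell held it: the 8 had a median OHT over control ratio of -0.39, against -0.44 for the 25 tested members with a window and no match. CCGGAAG on either strand stood in 13 of 36 (36.1%), against 20% of other tested and 9.93% of all genes. Polr1e, Noc2l and Nolc1 did not enter the tests, but are among the 36, these 13 and the 17 with TTCCGG below. The tested members with a match were 10, beside 23 tested members with a window and no match. Gar1 was the 1 of the 10 that fell. TTCCGG, which overlaps CTTCCGG, stood in 17 (47.2% against 31.4% and 16.7%), CATGTG or its reverse complement CACATG in 7 (19.4% against 9.79% and 15.9%) and CGCGCG in 6 (16.7% against 24.9% and 12.7%). All 5 motifs searched, on both strands, are given here; they were chosen after a first search, and the windows of the members had a median GC content of 59.7% against 61% for other tested genes. A match is a description of the letters only.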

How the data were processed

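RNA-seq of 8 libraries (4 contexts, 1 OHT and 1 control library each) was read from 4 deposited tables of 19353 RefSeq transcripts (17553 symbols). Per the submitters' processing notes, TopHat, DESeq and mm9 were used; for versions, counting rules and strand use, the sources used here give nothing, and per the labels' protocols total RNA was made into TruSeq RNA v2 libraries. The signal values are normalised read counts (baseMean), scaled by the authors with 1 size factor per library, per the file headers. The fold values are the authors' deposited ratio of the OHT column to the control column, with its log2 value beside it as the authors deposited it. The p-values are the authors' own, deposited per pair, which has no replicate. All values (100%, tolerance 0.02) were whole multiples of 1 read, so reads were recovered (4226751 to 6998223 per library). No value is 0, and 15.1% to 20.0% of a library's values stand at the lowest entry, against 6.89% to 8.09% at the next. Whether 1 was added to every count before deposit could not be settled; each recovered count would then be 1 too high, and a fit with 1 read fewer in every entry was added after seeing the data. Size factors matched 1 joint scaling of the 8 libraries, so levels were compared across tables. At a single pair, exact 95% intervals cover counting error only. Of 36 symbols turned into dates, 35 were restored.

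Values were tested as log2(value + 1), for transcripts with a mean of at least 20, with limma 3.58.1 (R 4.3.3), context as block, constant prior variance and Benjamini-Hochberg adjustment over 10599 transcripts at 0.05. A fold change on this scale understates the change of low genes. SE is the ordinary standard error over the 4 contexts. OHT and control libraries of 1 context were paired because the labels give them the same transduced gene. A gene with several transcripts was represented by the one of highest mean. Alternatives were edgeR 4.0.16 and DESeq2 1.42.0 on recovered reads, pseudocount 10, no filter, centring on library medians, leaving out transcripts over 0.5 reads per base, a trended prior, summed transcripts, no block and leaving out each pair; scripts were tested on simulated data. The members and lists were chosen with earlier results of these data known.

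Values in all libraries were given for members past the test, the 5 with most reads per kb (transcript lengths from GENCODE M21) and the highest and lowest ratio per context, and for Polr1a, chosen after its values were seen, as were Rrp12 and Bysl, given in the control libraries. From each related list up to 5 genes past the test with the ratio furthest from 0 were named, others being named after their values were seen (Lyar, Ddx51, Ddx56, Mycn). Named too were the 10 transcripts nearest the members' mean profile among genes outside the members, the related lists and the marker lists. The other marker lists gave 0 of 7 neutrophil genes, 1 of 6 mast cell and eosinophil genes (Epx, lower), 2 of 4 megakaryocyte genes (Gp9 and Vwf, higher) and 0 of 2 erythroid genes past the test.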

Additional observations from a re-analysis of the deposited data

How the results depend on the processing

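The 6 members called lower (793 of 1471 called transcripts lower) became 8 (891 of 1629) with a pseudocount of 10, 6 (695 of 1522) after centring on library medians, 6 (762 of 1416) with summed transcripts, 5 (733 of 1347) with 1 read fewer in every entry, 1, Rrp1b (147 of 354), with no filter on low values, 3 of 24 (582 of 1044) without transcripts over 0.5 reads per base, 11 (959 of 2235) with edgeR, 16 (1362 of 3130) with DESeq2 and 16 (1183 of 2314) with a trended prior. No member was called higher under any of them. Without the replicate block, that is without pairing by context, 9 were called lower (610 of 999 called transcripts lower) and Gar1 was lost (limma adjusted p = 0.0663). Leaving out 1 pair gave 0 to 0 members, and 0 transcripts in all but the fit that dropped NT, which called 26 (2982 to 3319 transcripts had an unadjusted p under 0.05), with a member median of -0.54 to -0.38. Heatr1 ranged from -0.444 to 0.052 in these fits, its sign turning where NT was dropped. In the transduced contexts alone edgeR called 1 member (170 of 534 called transcripts lower) and DESeq2 4 (765 of 1955). DESeq2 called 1599 transcripts among contexts, against 232, and 1019, 370 and 1026 over NT in HOXA9, PML-RARa and MLL-AF9, against 234, 2 and 304, none a member; leaving out 1 library gave 0 to 159 among contexts and 0 to 214, 0 and 10 to 236 over NT. At 1.5-fold and 100, members lower with OHT were 12 in NT, 15 in PML-RARa and 17 in MLL-AF9, and 1 was higher in HOXA9; between control libraries 2 were lower than NT in HOXA9, 2 lower and 1 higher in PML-RARa and 1 higher in MLL-AF9. Centring left 3 members 2-fold lower in MLL-AF9. The causes were not tested. Depth limits Wdr12 most, at 6 to 34 reads per library.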
